A study of Mus musculus with 16 samples.

Results

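miR-142 is a microRNA (miR) whose hairpin yields a mature strand from each arm, listed on the array as mmu-miR-142-3p and mmu-miR-142-5p. The non-control probes annotated to these names gave 2 miRs of the 577 on the array, read by 4 of its 1712 probes, with 2 probes per arm and 10 spots per probe, or 40 of the 11540 non-control spots. The series held 16 single-colour Agilent arrays of mouse miRs, and each array carried the total RNA of a population sorted from the bone marrow of young adult female C57Bl/6 mice after lineage depletion and c-kit enrichment, with several mice pooled per replicate per the study's methods. Long-term hematopoietic stem cells (LT-HSC) had 1 array. Short-term hematopoietic stem cells (ST-HSC), multipotent progenitors (MPP), and the myeloid progenitors known as common (CMP), granulocyte-monocyte (GMP) and megakaryocyte-erythroid (MEP) had 3 arrays each. No genotype or treatment set the groups apart. LT-HSC, ST-HSC and MPP are called HSC subsets here, and CMP, GMP and MEP myeloid progenitors. The methods describe one sort for the HSC subsets and another for the myeloid progenitors, so sort and set cannot be told apart. Since replicates are pools, p-values measure the spread between pools and not between mice.

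A miR hairpin is cut by Drosha and then by Dicer into a short duplex, one strand of which is loaded into an Argonaute protein and guides it to messenger RNAs, mainly through its seed, bases 2 to 8. miR-142 is known as a miR of blood cells: it is abundant in nearly all hematopoietic lineages and scarce elsewhere, and for this reason its target sites are built into vectors to silence them in blood cells. Both strands are loaded, and their seeds differ, so they address different targets.

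The 3p and 5p strands are shown because every measurement below is of one or the other or of their ratio. The sequences are RefSeq's on GRCm38.p6, where this miR is named miR-142a, and capitals mark the seed:
miR-142-3p: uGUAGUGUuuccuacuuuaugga
miR-142-5p: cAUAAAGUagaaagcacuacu
The strands have 23 and 21 bases and lie on the plus strand at chr11:87756903-87756925 and chr11:87756867-87756887. The hairpin gene Mir142 spans chr11:87756864-87756927, 64 bases, and holds the strands with 15 bases between them. In this sequence of the hairpin, capitals mark the 5p strand and then the 3p strand:
Mir142 hairpin: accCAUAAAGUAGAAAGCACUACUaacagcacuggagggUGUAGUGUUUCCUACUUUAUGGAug
No other mature miR in the RefSeq table, of 1679 names, had either seed, nor did any of the 372 miRs on the array that matched the table by name, so neither arm belongs to a larger seed family in these lists. The table also holds a miR from the opposite strand, miR-142b at chr11:87756906-87756925, whose 20 bases are the exact reverse complement of part of miR-142-3p. It is shown with its seed in capitals, since it overlaps the 3p strand but is not on the array under this name:
miR-142b: uCCAUAAAguaggaaacacu
The array's own annotation places the probes on mm9, an older build, and its coordinates are not comparable with those above. There the 3p probes cover 23 and 22 bases, chr11:87570405-87570427 and chr11:87570406-87570427, and the 5p probes cover 18 and 19 bases, chr11:87570372-87570389 and chr11:87570371-87570389. The probes of one arm thus overlap almost fully and are no independent measures of it.

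Both arms were measured on every array. All 10 spots of each of the 4 probes were well above background on all 16 arrays, and 0 were saturated. The coefficient of variation among the spots of a probe had a median of 3.73% and ranged from 1.12% to 10.9%. The brighter probe of each arm, of 23 bases for miR-142-3p and of 18 bases for miR-142-5p, stands for the arm below. Signals of different probes are not on one scale, so a higher signal of one arm does not by itself give a higher copy number. A level in a sorted population also cannot separate fewer cells with the miR from less of it per cell.

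The arrays lay on 3 slides, which did not hold the populations evenly. Slide 1 held CMP, GMP and MEP 1 and 2, slide 2 held LT-HSC 1, ST-HSC 1, CMP 3, GMP 3 and MEP 3, and slide 3 held ST-HSC 2 and 3 and the 3 MPP arrays. Feature Extraction, the scanner software, had an older version for slide 1 than for the others. The 95th percentile of the negative control spots was 9.94 to 44.3 on slide 1, highest on CMP 2. On slides 2 and 3 it was 1.53 to 3.35, and its part in the comparisons was not tested. The summed spot signal ranged from 292610 on LT-HSC 1 to 3234880 on GMP 2, and the LT-HSC array had the fewest miRs well above background, with 145 to 226 on the other arrays. Marker miRs followed the labels with exceptions. miR-223, a granulocyte and monocyte miR, was highest in GMP (normalized log2 level 14.04), and miR-125b-5p and miR-99a, stem cell miRs, were each higher in the 3 HSC subsets than in any myeloid progenitor. miR-126-3p, another stem and progenitor miR, was highest in MPP (8.56), but ST-HSC (7.20) lay below CMP (7.37). The erythroid miRs miR-144 and miR-451 were highest in MEP (9.25 and 12.12), but the LT-HSC array held both above the other 4 populations (5.29 against 1.62, the floor, to 2.81, and 11.15 against 5.37 to 7.44), and their part in the LT-HSC values below was not tested. miR-150, a miR of mature lymphocytes, was highest in MPP (7.20).

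mmu-miR-142-3p was among the brightest miRs of every population. The unnormalized signal of mmu-miR-142-3p, background-subtracted by the scanner software, was 616 on the LT-HSC array. In ST-HSC it was 4045, 2231 and 1800, and in MPP it was 2114, 2889 and 2650. In CMP it was 8805, 12954 and 4949, in GMP 13824, 17484 and 6849, and in MEP 7916, 6090 and 3968. Every myeloid progenitor array was brighter than 6 of the 7 HSC arrays, and the sets overlapped only because ST-HSC 1 (4045) stood above MEP 3 (3968), both on slide 2. The LT-HSC array was the dimmest of all in this miR as in its summed signal.

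The mean unnormalized signal of mmu-miR-142-5p followed the same order of populations with one exchange, ST-HSC below MPP. The signal of mmu-miR-142-5p was 74.8 on the LT-HSC array, 371, 295 and 277 in ST-HSC, and 294, 473 and 466 in MPP. In CMP it was 1036, 1504 and 441, in GMP 1446, 1908 and 616, and in MEP 849, 665 and 312. The slide 2 array was the dimmest of its population in CMP, GMP and MEP for both arms. In miR-142-5p the slide 2 arrays CMP 3 (441) and MEP 3 (312) lay below the highest HSC array, MPP 2 (473), and the other 7 myeloid progenitor arrays lay above it.

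Rank within the array does not depend on the array's overall brightness. Among the 577 miRs, each taken at its brightest probe, miR-142-3p had rank 3 on the LT-HSC array, ranks 2, 10 and 12 in ST-HSC and ranks 12, 11 and 11 in MPP. In CMP it had ranks 3, 2 and 2, and on every GMP and MEP array it had rank 3. The ranks thus fell into 2 sets: 10 to 12 on the 5 arrays of slide 3, and 2 or 3 on the 11 arrays of slides 1 and 2. Slide 3 held only ST-HSC and MPP, and every MPP array lay there. Only ST-HSC had ranks in both sets, so slide and population cannot be told apart for MPP. miR-720 was brighter than miR-142-3p on 15 of the 16 arrays, miR-1224 on 9, and miR-223 on 8, among them the 3 GMP arrays. The miRs that passed it on slide 3 included let-7a, let-7f, miR-19b, miR-21, miR-92a, miR-223 and miR-709, each on all 5 arrays.

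miR-142-5p ranked lower, with a median of 31 over the 16 arrays against 3 for miR-142-3p. It had rank 46 on the LT-HSC array, ranks 31, 45 and 45 in ST-HSC and ranks 49, 42 and 41 in MPP. In CMP the ranks were 35, 31 and 22, in GMP 29, 27 and 23, and in MEP 28, 26 and 26. Here the LT-HSC array (slide 2) stood among the arrays of slide 3, which had ranks 41 to 49, and not with the others of its own slide, which had ranks 22 to 31.

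**Figure D1:**
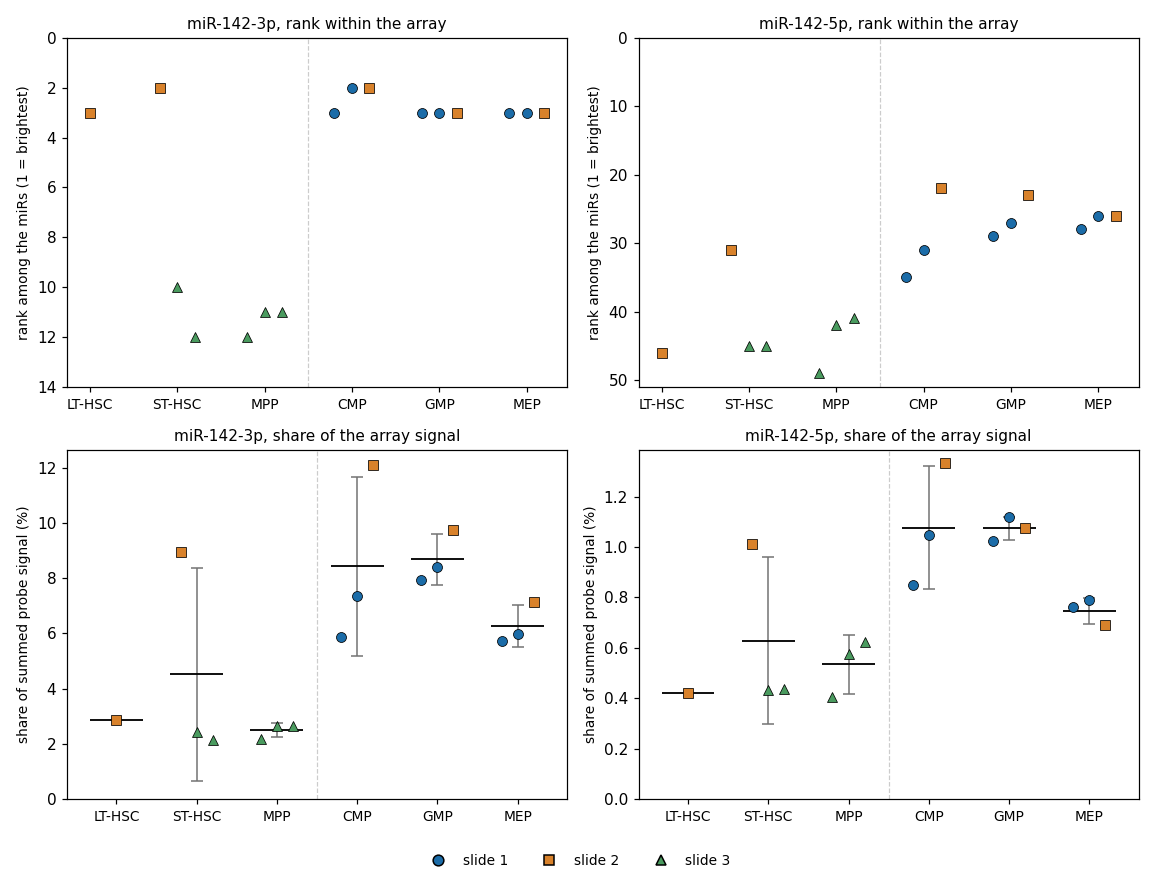
Rank among the 577 miRs of an array (top, 1 is the brightest) and share of the summed probe signal in percent (bottom) for miR-142-3p (left) and miR-142-5p (right), by population. Each point is an array, its colour and shape the slide, and lines and bars in the lower panels are means and SD. miR-142-3p holds ranks 10 to 12 on slide 3 and 2 or 3 on slides 1 and 2, while the LT-HSC array is with slide 3 for miR-142-5p.

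As a share of the summed signal of all probes, the probes of miR-142-3p together made up 2.86% on the LT-HSC array, 4.51% ± 3.86 in ST-HSC, 2.49% ± 0.264 in MPP, 8.44% ± 3.25 in CMP, 8.69% ± 0.933 in GMP and 6.27% ± 0.771 in MEP (SD, n = 3 each). The wide spread in ST-HSC came from ST-HSC 1 on slide 2, at 8.96%, with 2.44% and 2.14% on the slide 3 arrays. The highest share was on CMP 3, at 12.1%. miR-142-5p made up 0.420% on the LT-HSC array, 0.627% ± 0.332 in ST-HSC, 0.534% ± 0.115 in MPP, 1.08% ± 0.243 in CMP, 1.07% ± 0.0468 in GMP and 0.747% ± 0.0510 in MEP (SD, n = 3 each). In the order of the means, MEP and GMP were the only neighbours with replicates whose arrays did not overlap in the miR-142-5p share. No neighbours with replicates were separate in the miR-142-3p share. GMP (7.93% to 9.73%) and MEP (5.71% to 7.15%), with CMP between them in that order, did not overlap in it either. MPP (2.19% to 2.66%) lay below both.

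Levels were then compared between populations after quantile normalization, which gives every array the same distribution of signals. On this scale a level follows the rank of the probe, so arrays with equal ranks have equal levels, and miR-142-3p took only 7 distinct values. Its normalized log2 level was 12.24 on the LT-HSC array, 13.44, 11.49 and 11.15 in ST-HSC, and 11.15, 11.40 and 11.49 in MPP. In CMP it was 12.88, 13.44 and 13.44, in GMP 12.70, 12.70 and 12.88, and in MEP 12.70 on each array. By mean the order was MPP, ST-HSC, LT-HSC, MEP, GMP and CMP. The neighbours MPP and ST-HSC, MEP and GMP, and GMP and CMP overlapped, the LT-HSC value lay within the range of ST-HSC, and it lay below every MEP array.

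The normalized log2 level of miR-142-5p was 8.68 on the LT-HSC array, 9.55, 8.56 and 8.65 in ST-HSC, and 8.40, 8.88 and 8.93 in MPP. In CMP it was 9.28, 9.62 and 10.15, in GMP 9.66, 9.79 and 10.02, and in MEP 9.69, 9.83 and 9.75. By mean the order was LT-HSC, MPP, ST-HSC, CMP, MEP and GMP, and every neighbouring pair in it overlapped. The lower values were again those of the HSC subsets, of which ST-HSC 1 alone reached into the range of the myeloid progenitors.

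**Figure D2:**
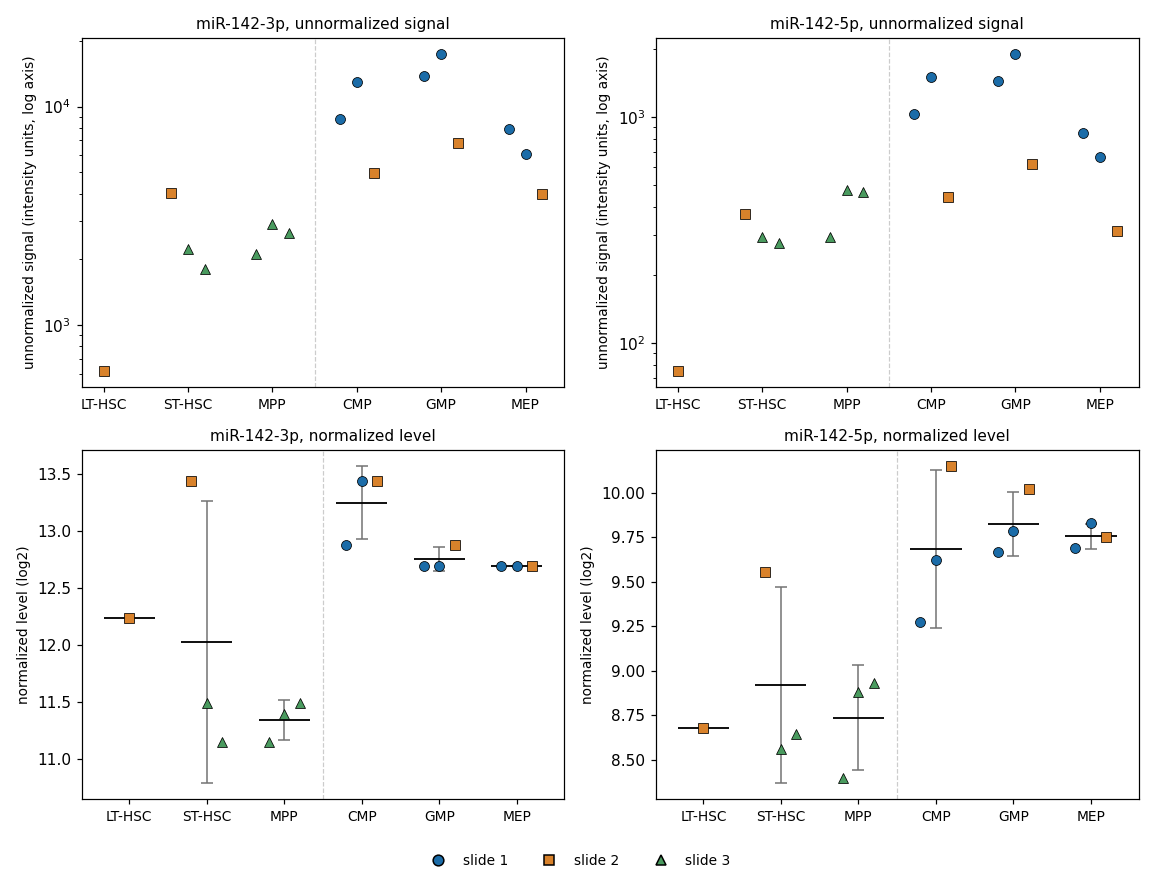
Unnormalized signal on a log axis (top) and quantile-normalized log2 level (bottom) of miR-142-3p (left) and miR-142-5p (right), by population. Each point is an array, its colour and shape the slide, and lines and bars in the lower panels are means and SD (n = 3, LT-HSC n = 1). ST-HSC 1, on slide 2, lies far above the ST-HSC arrays of slide 3, at 13.44 against 11.49 and 11.15 for miR-142-3p.

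Both arms differed among the 6 populations. The moderated F test of limma gave an adjusted p of 0.0161 for miR-142-3p and 0.00753 for miR-142-5p, with Benjamini-Hochberg adjustment over the 237 miRs that passed the detection filter. Of these miRs 82.7% were called in the same test at an adjusted p under 0.05, and the arms stood at places 179 and 160 by the size of F. Their SD over the 16 arrays, 0.82 and 0.57 on the log2 scale, was below the median of 0.89 over the tested miRs. Both arms thus varied less over the arrays than the median tested miR. With slide as a block in the fit, the adjusted p of the F test was 0.00583 and 0.0128 (limma), with 89.9% of miRs called. Without MPP 1 the miR-142-3p call was lost (limma, adjusted p = 0.0554), as it was without a detection filter (limma, adjusted p = 0.0645).

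Between the HSC subsets and the myeloid progenitors, each taken as the equal mean of its 3 populations, both arms were lower in the HSC subsets. The log2 difference was -1.03 for miR-142-3p (SE 0.29, limma, adjusted p = 0.0110) and -0.98 for miR-142-5p (SE 0.19, limma, adjusted p = 0.00123). In this comparison 48.1% of the tested miRs were called, 22.8% being lower in the HSC subsets, and the median difference over all tested miRs was 0.06. The arms were at places 58 and 63 by the size of the difference.

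The slide moved with this comparison, since no myeloid progenitor array lay on slide 3 and no HSC array on slide 1. With slide as a block in the fit, the difference was 0.04 for miR-142-3p (95% interval -0.39 to 0.48, limma, adjusted p = 0.872) and -0.67 for miR-142-5p (95% interval -1.16 to -0.18, limma, adjusted p = 0.0298), with 44.3% of miRs called and 17.3% called as lower. So the miR-142-5p difference remained past the threshold under the block and the miR-142-3p difference did not. The single LT-HSC array stands for 1 of the 3 populations in the mean of the HSC subsets. Under the block LT-HSC minus the mean of ST-HSC and MPP was -1.21 in miR-142-3p and -0.94 in miR-142-5p. The part of this array in the differences between the sets under the block was not tested. The block ties slide 3 to the other slides through ST-HSC alone, whose single array elsewhere was ST-HSC 1. Slide 2 alone held arrays of both sets. There the LT-HSC and ST-HSC arrays differed from the CMP, GMP and MEP arrays by -0.17 for miR-142-3p and -0.86 for miR-142-5p, with 0 miRs called by limma at an adjusted p under 0.05 and 11 at an unadjusted p under 0.05. In miR-142-5p LT-HSC 1 was at 8.68 and ST-HSC 1 at 9.55, against 9.75 to 10.15 on the myeloid progenitor arrays of slide 2. In miR-142-3p they were at 12.24 and 13.44, against 12.70 to 13.44.

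ST-HSC, CMP, GMP and MEP each had arrays on 2 slides, whose values are set side by side here. ST-HSC 1 on slide 2 was 2.12 above the mean of ST-HSC 2 and 3 on slide 3 in the log2 level of miR-142-3p and 0.95 above it in that of miR-142-5p. For CMP, GMP and MEP the slide 2 array minus the mean of the slide 1 arrays was 0.28, 0.18 and 0 in miR-142-3p, and 0.70, 0.30 and -0.01 in miR-142-5p. The gap between ST-HSC 1 and the other ST-HSC arrays was thus larger for miR-142-3p than the -1.03 between the sets. For miR-142-5p the gap was about as large as the -0.98 between the sets. It rests on 1 array of slide 2, so array and slide cannot be told apart in it.

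Between MPP and CMP, the step from a multipotent to a myeloid progenitor, both arms were lower in MPP and the arrays of the populations did not overlap. The log2 difference was -1.91 for miR-142-3p (SE 0.44, limma, adjusted p = 0.00548) and -0.95 for miR-142-5p (SE 0.29, limma, adjusted p = 0.0235), and 32.9% of miRs were called, 15.6% as lower. MPP and CMP shared no slide. With slide as a block, which then ties them through ST-HSC and the slide 2 arrays, the differences were 0.11 (95% interval -0.57 to 0.79) and -0.22 (95% interval -0.98 to 0.55), with limma adjusted p of 0.836 and 0.722 and 20.7% of miRs called. Without the block, the miR-142-5p call was also lost without MPP 1 (-0.78, limma adjusted p = 0.0937), without CMP 2 (-0.98, limma adjusted p = 0.0503) and without CMP 3 (-0.71, limma adjusted p = 0.0852).

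Within the HSC subsets neither arm passed the test. LT-HSC against the mean of ST-HSC and MPP differed by 0.55 in miR-142-3p (SE 0.58, limma, adjusted p = 0.489) and by -0.15 in miR-142-5p (SE 0.38, limma, adjusted p = 0.795), while 29.1% of miRs were called. The fit took the single LT-HSC array to vary as the replicated populations did. With slide as a block the differences became -1.21 and -0.94, both past the threshold (limma, adjusted p = 0.00582 and 0.0334, 55.7% of miRs called and 39.2% lower), and the block compares LT-HSC with ST-HSC through ST-HSC 1 only, the one HSC array beside it on slide 2. Without ST-HSC 1 and without the block, the miR-142-3p difference was 0.91 and past the threshold in the other direction (limma, adjusted p = 0.0111). In that fit 43.5% of miRs were called. The direction in miR-142-3p also changed with the scaling, to -0.73 with arrays scaled to the 75th percentile of all probes (limma, adjusted p = 0.302). Without normalization between arrays, where the LT-HSC array was the dimmest, the differences were -2.04 and -2.24 and were called in both arms (limma, adjusted p = 0.0396 and 0.0352, 35.4% of miRs called).

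ST-HSC and MPP differed by 0.68 in miR-142-3p (SE 0.44, limma, adjusted p = 0.428) and by 0.18 in miR-142-5p (SE 0.29, limma, adjusted p = 0.735), with 4.64% of miRs called. Within slide 3, where ST-HSC 2 and 3 lay beside the 3 MPP arrays, the differences were -0.03 and -0.13, the values that the fit with slide as a block also gave (17.7% of miRs called). All of the positive difference in either arm thus came with ST-HSC 1.

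Among the myeloid progenitors no difference in either arm passed the threshold in the fit on population means. CMP and GMP differed by 0.49 in miR-142-3p (95% interval -0.45 to 1.44) and by -0.14 in miR-142-5p (95% interval -0.77 to 0.49). CMP and MEP differed by 0.55 in miR-142-3p (95% interval -0.39 to 1.499) and by -0.07 in miR-142-5p (95% interval -0.70 to 0.56). GMP and MEP differed by 0.06 in miR-142-3p (95% interval -0.89 to 1.01) and by 0.07 in miR-142-5p (95% interval -0.56 to 0.70). The limma adjusted p of these 6 differences ranged from 0.282 to 0.930. By contrast, 64.6% of miRs were called between CMP and MEP and 62.9% between GMP and MEP, against 7.59% between CMP and GMP. The median difference over all tested miRs was 0.55 for CMP minus MEP and 0.44 for GMP minus MEP, so on this scale miR-142-3p stood at the median in the first and both arms below it in the second. The slides were balanced over these 3 populations, so a block left the differences as they were and narrowed their intervals. Under the block miR-142-3p passed the threshold between CMP and GMP (95% interval 0.14 to 0.85, limma, adjusted p = 0.0433, 28.7% of miRs called and 15.6% higher) and between CMP and MEP (95% interval 0.20 to 0.91, limma, adjusted p = 0.00817, 82.3% of miRs called and 56.1% higher). Between GMP and MEP neither arm passed under the block either (81.0% of miRs called). The miR-142-3p call between CMP and MEP was also made in the fit without ST-HSC 1 (0.55, limma, adjusted p = 0.0168, 70.9% of miRs called) and in a fit of the CMP, GMP and MEP arrays alone with the replicate number as a block (0.55, limma, adjusted p = 0.0190, 75.5% of miRs called). In the latter CMP minus GMP was not called (limma, adjusted p = 0.0912). Other scalings changed these comparisons. With arrays scaled to the 75th percentile of the probes detected on all of them, miR-142-3p was -0.23 for CMP minus GMP and -0.28 for CMP minus MEP, neither called (limma, adjusted p = 0.894 and 0.560). Scaled to the 75th percentile of all probes, GMP minus MEP was 1.001 in miR-142-3p and 1.05 in miR-142-5p, called in both arms (limma, adjusted p = 0.0401 and 0.0166, 76.4% of miRs called).

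**Figure D3:**
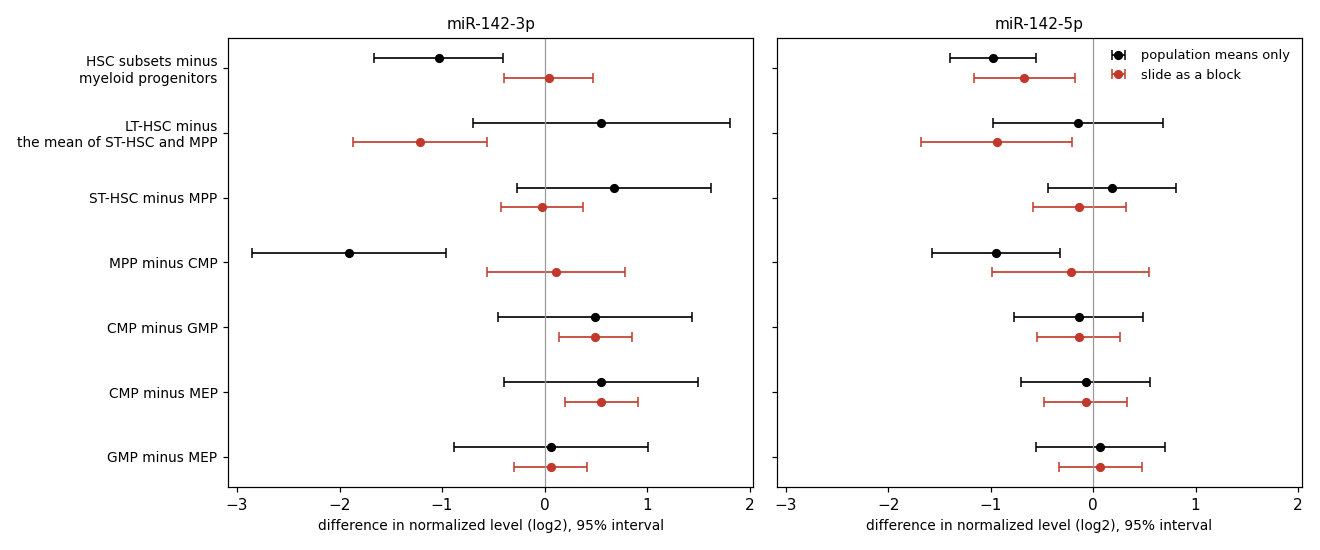
Difference in normalized log2 level of miR-142-3p (left) and miR-142-5p (right) for 7 comparisons, with 95% intervals from limma. Black marks the fit on population means and red the fit with slide as a block. The block moves miR-142-3p from -1.03 to 0.04 between HSC subsets and myeloid progenitors and from -1.91 to 0.11 between MPP and CMP, and leaves the 3 myeloid comparisons in place.

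The ratio of the arms was formed within each array from the unnormalized signals, so a factor common to the whole array cancels. Since the probes differ, only its change between arrays is read here. log2 of the 3p over the 5p signal was 3.04 on the LT-HSC array, 3.45, 2.92 and 2.70 in ST-HSC, and 2.84, 2.61 and 2.51 in MPP. In CMP it was 3.09, 3.11 and 3.49, in GMP 3.26, 3.20 and 3.47, and in MEP 3.22, 3.19 and 3.67. By mean the order was MPP (2.65 ± 0.17), ST-HSC (3.02 ± 0.39), LT-HSC (3.04), CMP (3.23 ± 0.23), GMP (3.31 ± 0.15) and MEP (3.36 ± 0.27) (SD, n = 3 each), and the neighbours with replicates overlapped. As plain ratios the 3p signal was 5.68 to 12.7 times the 5p signal.

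The miR-142 ratio was lower in the HSC subsets. Its mean was 2.87 ± 0.32 over their 7 arrays and 3.30 ± 0.20 over the 9 myeloid progenitor arrays (SD), a difference of -0.43 (p = 0.00629 by exact permutation over 11440 splits of the arrays, two-sided). ST-HSC 1 alone among the HSC arrays lay within the range of the myeloid progenitors. The fit across the 3 hairpins with both arms well above background on all arrays gave -0.39 (SE 0.15, limma, adjusted p = 0.0115), and all 3 hairpins, 100%, were called. GMP and MEP differed by -0.05 in the ratio (95% interval -0.50 to 0.40, limma, adjusted p = 0.976). No hairpin was called there (0.00%). Within each of these comparisons the fit gave all 3 hairpins the same SE. Its SE and p-values thus rest on a spread pooled over the hairpins and not on that of miR-142 alone. Across the 6 populations the moderated F of limma gave an adjusted p of 0.0162, again with 100% of the hairpins called, and 0.0969 and 0.141 without MPP 2 and without MPP 3. Of the 3 hairpins, miR-142 had the lowest SD of the ratio over arrays, 0.33, and miR-17 over miR-17* the highest, 0.61. As formed, all 3 ratios were lower in the HSC subsets than in the myeloid progenitors, and miR-142 differed least. The difference was -0.85 for miR-140 over miR-140* and -0.88 for miR-17 over miR-17*, against -0.39 for miR-142. A lower ratio in the HSC subsets was thus not particular to miR-142.

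The arm ratio also followed the slide. It was 3.18 ± 0.07 on slide 1 (SD, n = 6), 3.42 ± 0.23 on slide 2 (SD, n = 5) and 2.72 ± 0.17 on slide 3 (SD, n = 5). Each population on 2 slides had its highest ratio on slide 2, by 0.64 in ST-HSC, 0.39 in CMP, 0.25 in GMP and 0.46 in MEP over the mean of its other arrays. The other hairpins, as unstarred over starred strand, had their lowest mean ratio on slide 3, -2.11 for miR-140 over miR-140* and -0.55 for miR-17 over miR-17*. Since these names give no arm, that direction cannot be set beside the one of 3p over 5p. With slide as a block the hairpin fit gave -0.28 for HSC subsets minus myeloid progenitors (limma, adjusted p = 0.0182). The other hairpins were not read under the block. Within slide 2 the difference in the miR-142 ratio was -0.30, with LT-HSC 1 and ST-HSC 1 below all 3 myeloid progenitor arrays. The exact permutation test gave p = 0.2, the smallest that 2 arrays against 3 allow here. From the quantile-normalized signals the difference was -0.19 (exact permutation, two-sided p = 0.411), and from the authors' normalized values -0.14 (exact permutation, two-sided p = 0.498).

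The ratio of the 2 probes of one arm does not involve the other arm and was set beside the arm ratio. For miR-142-3p the brighter probe gave 2.00 to 2.04 times the signal of the other on slide 3 and 1.61 to 1.69 times on slides 1 and 2, with no overlap. The shift of slide 3 against the other slides was 0.31 on the log2 scale. For miR-142-5p the same ratio was 0.989 to 1.06 on all arrays, with a shift of -0.02. Among the 78 miRs with 2 probes well above background on all arrays, the shift had a median size of 0.14 and reached from -0.42 to 1.24. By size, 21 of them, with miR-142-3p itself counted, shifted at least as far as miR-142-3p. The part of this probe shift in the arm ratio was not tested beyond the mean over both probes of each arm, which gave a difference between the sets of -0.54 (exact permutation, two-sided p = 0.00402).

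**Figure D4:**
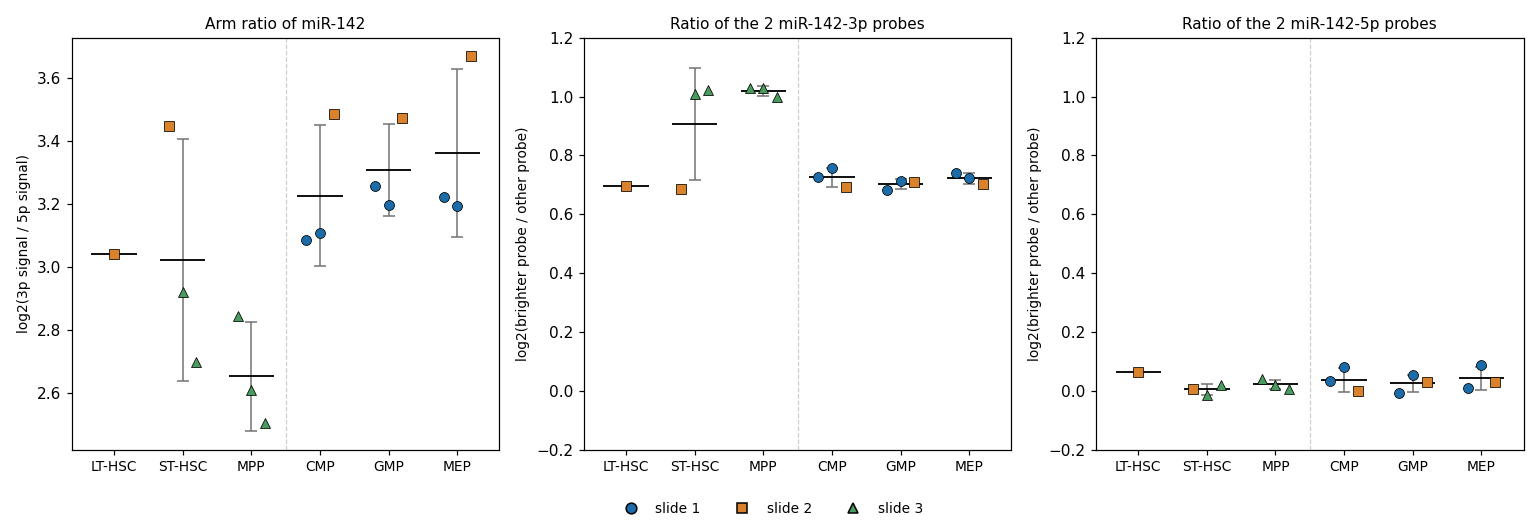
log2 ratio of the miR-142-3p to the miR-142-5p signal (left), and of the brighter to the other probe of miR-142-3p (middle) and of miR-142-5p (right), by population. Each point is an array, its colour and shape the slide, and lines and bars are means and SD (n = 3, LT-HSC n = 1). The arm ratio is lowest on slide 3, and the 3p probe ratio is near 1.0 there and near 0.7 on slides 1 and 2, while the 5p probe ratio stays near 0.

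The miRs whose normalized log2 levels were most like those of miR-142-3p over the 16 arrays were miR-15a (Pearson r = 0.93), miR-30e (0.92), miR-16 (0.90), miR-186 (0.89) and miR-93 (0.88). For miR-142-5p they were miR-101b (0.90), miR-186 (0.90), miR-106a (0.89), miR-17 (0.86) and miR-142-3p (0.85). The arms of the one hairpin were therefore each other's match at place 8 for miR-142-3p and place 5 for miR-142-5p among the tested miRs. These r are descriptions, since all points share slides and scaling. After the mean of each slide was subtracted, r between the arms was 0.50. With miR-142-3p, miR-15a then had 0.71, miR-30e 0.72, miR-186 0.58, miR-16 0.27 and miR-93 0.01. With miR-142-5p, miR-101b had 0.90, miR-186 0.82, miR-106a 0.75 and miR-17 0.63.

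Other miRs known from blood cells were read in the same comparison. Of 11 such miRs, all of them tested, 7 were called as higher in the HSC subsets than in the myeloid progenitors, 3 as lower and 1 was not called, and their median difference was 0.51. Of all tested miRs 25.3% were called as higher and 22.8% as lower, with a median of 0.06. Those called as lower were miR-223 (-0.76), the erythroid miR-144 (-1.49) and miR-16 (-1.37), with limma adjusted p of 0.0439, 0.0164 and 0.00273. Those called as higher included miR-146a (2.73) and miR-150 (2.14), which act in lymphocytes and in immune signalling. When slide entered as a block, 6 of the 11 were called as higher, 0 as lower and 5 were not called, against 27.0% of all tested miRs called as higher and 17.3% as lower, and their median difference was 0.89. Under the block miR-223 was at -0.30, miR-144 at -0.57 and miR-16 at 0.13 (limma, adjusted p = 0.599, 0.211 and 0.573), while miR-146a (4.38) and miR-150 (2.67) were called as higher again.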

How the data were processed

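Per the file headers, Agilent Feature Extraction made the deposited spot intensities in 2 versions over the slides, and its processed intensities were background-subtracted but not normalized between arrays. The authors also deposited a table of log2 values, which per their methods were quantile-normalized in limma. Its rows followed the scanner files by row order (Spearman rho of 1 with the median foreground intensity on all 16 arrays), so no background had been subtracted. Its column medians were 5.41 to 5.44, and whether these 16 arrays were normalized alone is not known. This table served as an alternative.

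Populations came from the labels and slides from the array names in them. Processed intensities were averaged over the spots of a probe without outlier flags, quantile-normalized, floored at 3.07 and then log2-transformed. The brightest probe stood for each miR. Of the probes, 493 were well above background (in at least 0.5 of their spots) on at least 3 arrays, which gave 237 miRs. limma 3.58.1 in R 4.3.3 fitted 1 mean per population on all 16 arrays (10 residual and 3.10 prior degrees of freedom), with Benjamini-Hochberg adjustment within each of 8 comparisons and a threshold of 0.05. Arm ratios used intensities without normalization between arrays and exact permutation over arrays (Python 3.11.15, scipy 1.17.1). Hairpins in the ratio fit were pairs of miRs whose names differ by arm or by a star. Scripts were tested on simulated data. The number of arrays limits the precision.

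The members and lists were chosen with earlier results of these data known. The text names both members and their probes, the 5 tested miRs with the highest Pearson r to each, a list of 11 blood miRs, 7 marker miRs, seed sharers, and the hairpins with the lowest and highest SD of the ratio. miRs that passed miR-142-3p in rank were named after their values were seen. Alternatives covered background correction, normalization, filter, floor, probe choice, variance model, slide, replicate number and each array left out. The messenger RNA part of the study was not used here.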

Additional observations from a re-analysis of the deposited data

Results flagged for a closer look

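ST-HSC 1, on slide 2, stood apart from the other HSC arrays in the share of the summed signal. For miR-142-3p its share was 8.96%, against 2.14% to 2.86% on the other 6 HSC arrays, and the gap to the nearest of them was 0.894 of the range of the 7. For miR-142-5p its share was 1.01%, against 0.403% to 0.623%, and the gap was 0.638 of the range. Both gaps passed the 95% critical value of Dixon's test for 7 samples, which chance passes in about 1 of 20 uniform groups. The 7 arrays mix populations and slides, so this rate need not hold for them. Gaps were also computed at both ends of both sets for the levels, the arm ratio and the shares, and no other gap passed. The normalized log2 levels of the same array (13.44 and 9.55) were also the highest of the 7 but did not pass it. It was the only ST-HSC array on slide 2, so array and slide cannot be told apart here.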

How the results depend on the processing

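Apart from the arrays left out, 27 of the values recomputed under an alternative turned direction and 1 was exactly 0. Of those that did not, 254 stayed on their side of the threshold or within the spread, 12 lost a call, 7 gained one and 2 moved by more than the spread. The differences between HSC subsets and myeloid progenitors kept direction and call in both arms except under slide. With slide as a block, miR-142-3p gave 0.043 for HSC subsets minus myeloid progenitors, -1.21 for LT-HSC minus ST-HSC and MPP, -0.027 for ST-HSC minus MPP, 0.11 for MPP minus CMP, 0.49 for CMP minus GMP and 0.55 for CMP minus MEP, and miR-142-5p gave -0.94 for LT-HSC, -0.13 for ST-HSC minus MPP and -0.22 for MPP minus CMP. Within slide 2 the sets differed by -0.17 and -0.86 and, in the arm ratio, by -0.30, and in miR-142-5p CMP minus GMP was 0.13 and CMP minus MEP 0.40, each 1 array against 1 with the sign turned and no test. Within slide 3, ST-HSC minus MPP was -0.027 and -0.13, and within slide 1, GMP minus MEP in miR-142-5p was -0.032. Under the 75th percentile of probes detected on all arrays, miR-142-5p gave 0.28 for LT-HSC minus ST-HSC and MPP, and miR-142-3p gave -0.23, -0.28 and -0.049 for CMP minus GMP, CMP minus MEP and GMP minus MEP. Under the 75th percentile of all probes, miR-142-3p gave -0.73 for LT-HSC and -0.57 for CMP minus GMP, miR-142-5p gave -0.13 for ST-HSC minus MPP and 0.57 for CMP minus MEP, and GMP minus MEP became 1.001 and 1.05 and was called in both arms. Without normalization, LT-HSC gave -2.04 and -2.24, MPP minus CMP -1.71 and -1.13 with the calls lost, CMP minus GMP in miR-142-3p -0.52, and miR-142-5p -0.37 for ST-HSC minus MPP and 0.65 for CMP minus MEP. The authors' values gave -0.00237 for GMP minus MEP in miR-142-5p, and for the arm ratio -0.14 between the sets by permutation, -0.017 in the hairpin fit and 0.29 for GMP minus MEP. Quantile-normalized signals gave arm ratios of -0.19 by permutation and -0.056 in the fit. The other probe gave -0.010 for CMP minus GMP in miR-142-3p. Without a detection filter, more miRs were tested, and the calls of MPP minus CMP in miR-142-5p (-0.95) and of the F test in miR-142-3p (adjusted p = 0.0645, limma) were lost. Total signal per miR, an alternative chosen after seeing the data as were the rank by total signal, r within slides, the blood list with slide as a block and the replicate block in CMP, GMP and MEP alone, gave 0.15 for LT-HSC in miR-142-5p and -0.081 for GMP minus MEP in miR-142-3p. The median rank of miR-142-5p was 49 over all probes and 25 by total signal. The causes were not tested.

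With 1 array left out, 301 values kept direction and call. The range was -1.27 to -0.89 and -1.08 to -0.90 for HSC subsets minus myeloid progenitors (miR-142-3p, then miR-142-5p), 0.33 to 0.91 and -0.24 to 0.0093 for LT-HSC, -0.027 to 1.12 and -0.13 to 0.36 for ST-HSC minus MPP, -2.10 to -1.81 and -1.15 to -0.71 for MPP minus CMP, 0.40 to 0.68 and -0.37 to 0.064 for CMP minus GMP, 0.46 to 0.74 and -0.31 to 0.13 for CMP minus MEP, and 0 to 0.09 and -0.030 to 0.15 for GMP minus MEP. The adjusted p of the F test (limma) ranged from 5.84e-06 to 0.0554 and from 0.000647 to 0.0203, and for the arm ratio from 0.00498 to 0.141. The arm ratio ranged from -0.53 to -0.37 between the sets by permutation, from -0.46 to -0.34 in the fit and from -0.14 to 0.10 for GMP minus MEP. Signs turned without ST-HSC 1 (LT-HSC in miR-142-5p, ST-HSC minus MPP in both arms), without CMP 1 (CMP minus GMP and CMP minus MEP in miR-142-5p), without GMP 3 (GMP minus MEP in miR-142-5p), and without GMP 2 or MEP 3 (GMP minus MEP in the arm ratio). The replicate number as a block changed no call and gave -1.09 and -0.95 for HSC subsets minus myeloid progenitors and -0.41 for the arm ratio. Arrays whose labels gave no number, MPP 1 among them, were numbered here within their population, so a shared number need not mean a shared preparation. In a fit of CMP, GMP and MEP alone the block called CMP minus MEP in miR-142-3p (0.55) and no other difference between them. Deviations of same-numbered arrays correlated from 0.23 to 0.63 in the 9 pairs within CMP, GMP and MEP and from -0.37 to 0.16 in the other 21. All 9 pairs shared a slide and the labels gave the slide 2 arrays no number, and the part of the slide in these correlations was not tested.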
